A study of Mus musculus with 12 samples.

Results

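The comparison described here set macrophages treated with interleukin 4 (IL4) against macrophages given vehicle, on 8 of the 12 arrays of the series. Its members were the 4 arrays titled as IL4 and the 4 titled as control, compared within replicate number, and the other 4 arrays, which held cells given IL4 with emodin, entered only where named. The cells of all groups were adherent peritoneal macrophages of wild-type C57BL/6 mice aged 8 weeks, which had been left overnight without serum after cells that did not stick were washed away. Control cells received vehicle and IL4 cells received IL4 at 10 ng/ml, for 6 h by the sample descriptions but overnight by the treatment protocol. In the series design the source is instead given as white blood cells of the blood. Whether RNA of several mice was pooled is not stated, so the p-values describe the scatter among these 8 samples, which may be technical in part.

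Each array gave the Cy3 intensity of 55681 probes. Levels below are log2 intensity minus the 75th percentile of the array, so 0 is the level of the probe at that percentile, and a difference of 1 is a 2-fold change. After removal of probes that were too dim in both groups, 20594 genes were tested, of which 13071 carried a gene symbol. Above background means well above it by the stricter test of the scanner software. Below background means that this test was not passed, so some signal may be present. The control arrays all lay in row 2 of the slide and the IL4 arrays in row 1, so row and IL4 cannot be told apart. The share of probes well above background was 50.2% ± 0.558 (SD, n = 4) in the control group and 52.3% ± 0.990 (SD, n = 4) in the IL4 group, without overlap (exact permutation test, two-sided, p = 0.0286, the smallest possible with 4 against 4). Neither the 75th percentile (exact permutation p = 0.286) nor the mean of the spike-in probes (exact permutation p = 1) separated the groups. The permutation tests set 4 arrays against 4 and did not pair them by replicate number. Arrays correlated at 0.993 to 0.997 within a group and at 0.982 to 0.988 between groups.

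Macrophage markers were above background on all 8 arrays for 8 of 8 genes. The labels call numbers 1 and 2 female and numbers 3 and 4 male. The Y-linked genes *Ddx3y*, *Eif2s3y*, *Kdm5d* and *Uty* were above background on 0 of the 6 arrays labelled male, and *Xist* was above background on all 12 arrays of the series. The labels of sex are therefore not borne out by the arrays, and what follows uses the numbers.

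IL4 binds a receptor of the IL4 receptor alpha chain with the common gamma chain or the IL13 receptor alpha 1 chain. The bound receptor activates Janus kinases, which phosphorylate the transcription factor STAT6. In mouse macrophages STAT6 drives the programme called alternative activation, whose best known products are arginase 1, the chitinase-like proteins, RELM alpha and the mannose receptor. The SOCS proteins, induced by the same kind of signal, bind the receptor or its kinases and limit it.

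With IL4, SOCS family genes, effector genes of alternative activation and CC chemokines were called higher more often than lower, and pattern recognition and chemoattractant receptors lower more often than higher. Of the 20594 genes, 6127 were called at an adjusted p below 0.05 in limma with the replicate number as a block (29.8%). 3017 of them were higher with IL4 (14.6%) and 3110 lower (15.1%). The share called in a list below is to be read against the 29.8% of all genes. By the fitted difference, 596 genes were called at least 2-fold higher (2.89%) and 261 at least 2-fold lower (1.27%). These include genes below background throughout 1 group, for which only a bound is known. With such genes at their bound, 565 rises and 252 falls passed 2-fold, 161 and 18 passed 4-fold, and 55 and 0 passed 8-fold. A fit on probes above background on all 8 arrays gave 402 rises and 206 falls past 2-fold. The median difference over all genes was -0.03. With the spike-in probes as the scale, 2748 genes were called higher and 1342 lower, so the balance of rises and falls depended on the scale. On that scale 938 genes passed 2-fold, 745 higher and 193 lower, so the balance past 2-fold moved too. Without number 2 of both groups 3805 genes were called, and without number 3 4001.

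**Figure D1:**
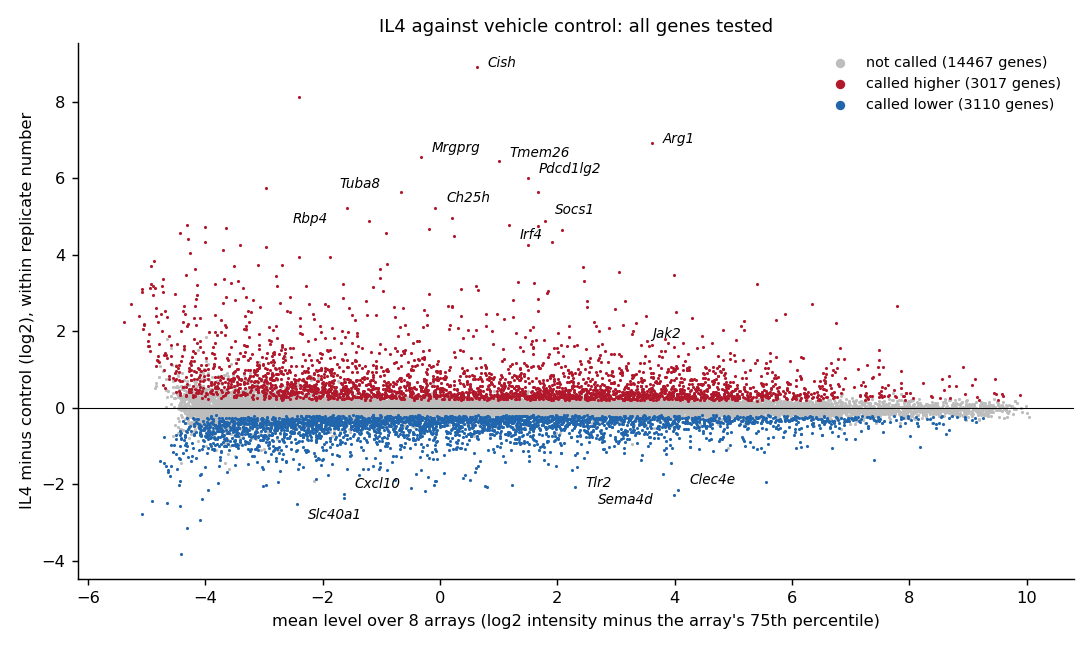
Difference between IL4 and control (log2, vertical) against mean level over the 8 arrays (log2 intensity minus the 75th percentile, horizontal) for each of the 20594 genes tested, with called genes in red (3017 higher) and blue (3110 lower) and the others in grey. Rises reach 8.90 for *Cish*, while few genes lie below -2.

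The largest rise of all genes was in a feedback inhibitor. Of the 8 SOCS family genes, 6 were called higher and none lower (75% called), with a median of 0.84. *Cish*, which encodes the SOCS family inhibitor CIS, read -3.92, -4.09, -3.92 and -3.34 on control arrays 1 to 4 and 5.19, 5.11, 4.92 and 5.12 on IL4 arrays 1 to 4. The 4 IL4 arrays lay far above every control array and close to each other, and the difference was 8.90 ± 0.13 (SE; limma adjusted p = 4e-06). *Socs1*, whose protein inhibits Janus kinases directly, read -0.69, -0.54, -0.69 and -0.71 on control arrays and 4.15, 4.34, 4.01 and 4.40 on IL4 arrays, a 29.5-fold rise. *Socs2* rose by 3.17 ± 0.40 and *Socs3* by 1.14 ± 0.06. *Socs4* (0.33) was higher by less, *Socs5* (0.53) was called, but not without number 1 (adjusted p = 0.0521) or number 3 (0.0534), and *Socs6* (0.06) and *Socs7* (0.15) were not called.

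Of the 22 receptor and JAK-STAT genes tested, 8 were called higher and 5 lower (59.1% called). Their median of -0.02 turned to 0.08 with spike-in scaling. *Jak2* read 2.69, 2.59, 2.51 and 2.65 on control arrays and 4.37, 4.24, 4.09 and 4.29 on IL4 arrays and rose by 1.63 ± 0.05 (limma adjusted p = 4.77e-05). The receptor chains moved apart: *Il4ra*, the chain that binds IL4, rose by 0.83 ± 0.08, whereas *Il13ra1*, a partner chain, fell by 0.89 ± 0.07. The common gamma chain *Il2rg* read 3.52, 3.51, 3.37 and 3.67 and 3.48, 3.30, 3.20 and 3.58 and was not called. *Stat6* read 3.91, 3.79, 3.83 and 3.76 on control arrays and 3.71, 3.58, 3.69 and 3.75 on IL4 arrays; every IL4 array lay below every control array, but the difference of -0.14 was not called (limma adjusted p = 0.146). *Stat4*, the STAT of interleukin 12, fell by 1.03 ± 0.09. Among phosphatases, *Ptpn2* rose by 0.86 ± 0.09 and *Ptpn6*, which encodes SHP1, fell by 0.64 ± 0.06. Of the phosphoinositide 3-kinase genes, *Pik3cd* fell by 0.63 ± 0.07 and *Pik3cg* by 0.34 ± 0.06, the last without a call on the spike-in scale (adjusted p = 0.323), and the adaptor *Irs2* (-0.04) was not called.

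STAT6 and the other STAT proteins bind a short palindrome, TTC and GAA with a spacer of 3 or 4 bases. Of the 8 largest fitted rises with a promoter in the RefSeq table, 4 hold such a string and are shown for it, and *Cish*, *Adipoq*, *Tuba8* and *Ch25h* hold none. The windows are the 250 bases before the gene start in RefSeq (build GRCm38.p6), given 5′ to 3′ on the strand of the gene, with every TTCNNNGAA or TTCNNNNGAA in capitals. *Mrgprg* lies on the minus strand at chr7:143766994-143767243, *Pdcd1lg2* on the plus strand at chr19:29410669-29410918, *Il31ra* on the minus strand at chr13:112580663-112580912 and *Tmem26* on the plus strand at chr10:68723496-68723745.
Mrgprg: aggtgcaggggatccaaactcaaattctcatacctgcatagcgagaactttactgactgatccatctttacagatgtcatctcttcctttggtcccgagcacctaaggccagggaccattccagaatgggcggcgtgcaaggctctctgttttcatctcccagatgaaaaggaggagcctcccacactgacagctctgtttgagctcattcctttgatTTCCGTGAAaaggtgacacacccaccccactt
Pdcd1lg2: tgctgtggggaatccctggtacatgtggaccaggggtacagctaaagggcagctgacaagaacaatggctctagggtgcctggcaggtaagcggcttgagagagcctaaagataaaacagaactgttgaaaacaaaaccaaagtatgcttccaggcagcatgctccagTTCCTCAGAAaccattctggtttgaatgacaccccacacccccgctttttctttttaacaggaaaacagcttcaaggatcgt
Il31ra: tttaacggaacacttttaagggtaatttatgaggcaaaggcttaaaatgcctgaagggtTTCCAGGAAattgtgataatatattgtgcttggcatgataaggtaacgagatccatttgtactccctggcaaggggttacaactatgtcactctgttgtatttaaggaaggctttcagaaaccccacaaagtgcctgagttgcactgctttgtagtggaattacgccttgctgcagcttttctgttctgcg
Tmem26: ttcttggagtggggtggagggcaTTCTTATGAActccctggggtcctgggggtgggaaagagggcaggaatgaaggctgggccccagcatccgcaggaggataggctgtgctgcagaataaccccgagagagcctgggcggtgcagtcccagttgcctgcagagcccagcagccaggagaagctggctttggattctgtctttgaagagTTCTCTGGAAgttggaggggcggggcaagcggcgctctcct
The match in *Mrgprg*, TTCCGTGAA, begins at -32 from the gene start, that in *Pdcd1lg2*, TTCCTCAGAA, at -82, and that in *Il31ra*, TTCCAGGAA, at -191. *Tmem26* holds 2 matches, both with the spacer of 4 bases. Both motifs read the same on either strand, so a match counts for both, and the same TTC cannot start a match of each spacing. Of the 49 genes called at least 8-fold higher by the fitted difference that have a promoter in the table, 24.5% hold TTCNNNGAA and 14.3% hold TTCNNNNGAA. The shares were 10.8% and 11.4% of the 334 genes called at least 2-fold higher, 7.53% and 5.48% of the 146 called at least 2-fold lower, and 7.38% and 5.79% of the 10467 tested genes with a promoter. Over all 27025 genes of the promoter table they were 8.13% and 6.76%. These shares count a gene once if any of its promoters matches. Counted per promoter, they were 18.3% and 9.86% for the genes at least 8-fold higher, 6.14% and 4.79% for the tested genes, and 7.02% and 5.85% over the 32851 promoters searched. Among the 40 largest rises, 33 have a promoter in the table, and 9 and 5 of these hold the motifs. For the 40 largest falls it was 1 and 3 of 33. A match is a string of letters and not a bound site, and the window of *Socs1* holds neither string.

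IL4 raised nearly all effector genes of alternative activation. Of 26 tested, 23 were called higher and none lower (88.5% called, against 29.8% of all genes), with a median of 2.37. The list was drawn up with earlier results of these data known, so its count is a description. *Arg1*, which encodes arginase 1, read -0.10, 0.06, 0.83 and -0.18 on control arrays and 6.91, 7.03, 7.35 and 6.97 on IL4 arrays, and rose 120-fold (limma adjusted p = 5.45e-06). *Pdcd1lg2*, the ligand PD-L2 of the inhibitory receptor PD-1, read -1.45, -1.43, -1.42 and -1.71 and 4.59, 4.51, 4.47 and 4.39, with groups as tight as those of *Cish*. *Tmem26*, a membrane protein, rose 87.6-fold, and *Flt1*, a receptor of vascular endothelial growth factor, 23.8-fold. *Mrc1*, the mannose receptor, read 4.32, 4.18, 4.70 and 3.50 on control arrays and 6.20, 6.24, 6.31 and 6.05 on IL4 arrays. *Cd209e*, a C-type lectin, was above background on IL4 arrays alone and rose at least 6.81-fold, whereas *Cd209a* rose by 0.82 ± 0.07 and *Cd209d* by 0.34 ± 0.08. Leaving out number 1, 2 or 3 ended the call of *Cd209d* (adjusted p = 0.0369 to 0.0965 over the 4 numbers left out). *Clec10a*, the galactose-type lectin MGL1, rose by 1.62 ± 0.12. *Cdh1*, which encodes E-cadherin and was above background on 3 of 4 control arrays, rose 10.5-fold. *Tgm2* (0.02), *Plk2* (0.17) and *Cd200r1* (-0.05) were not called.

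Several of these products differed between the numbered pairs before IL4. *Retnla*, which encodes RELM alpha, read 2.02, 3.58, 5.74 and 1.13 on control arrays 1 to 4 and 5.27, 5.46, 6.52 and 4.64 on IL4 arrays 1 to 4. The control array of number 3 lay above the IL4 arrays of numbers 1, 2 and 4, but each pair rose, by 3.24, 1.88, 0.77 and 3.51. The difference of 2.35 ± 0.46 was called with the block (limma adjusted p = 0.0142), but not without the block (adjusted p = 0.103) or without number 1 (0.0618). *Chil3*, a chitinase-like protein also called Ym1, read 4.52, 6.95, 8.18 and 6.18 and 8.60, 9.31, 9.39 and 9.15, and its pairs rose by 4.08, 2.36, 1.21 and 2.97. *Chil4* read -2.20, 0.14, 1.49 and -0.63 on control arrays and 1.92, 3.17, 3.73 and 3.05 on IL4 arrays. For all 3 genes number 3 had the highest level without IL4 and the smallest rise. *Mrc1* and *Irf4* had the highest control level in number 3 as well, with IL4 arrays that differed little. Near copies exist for the chitinase-like genes, the CD209 lectins and the eosinophil-type ribonucleases (*Rnase2a* 2.62, *Ear2* 0.98), and how far their probes bind the copies was not tested.

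**Figure D2:**
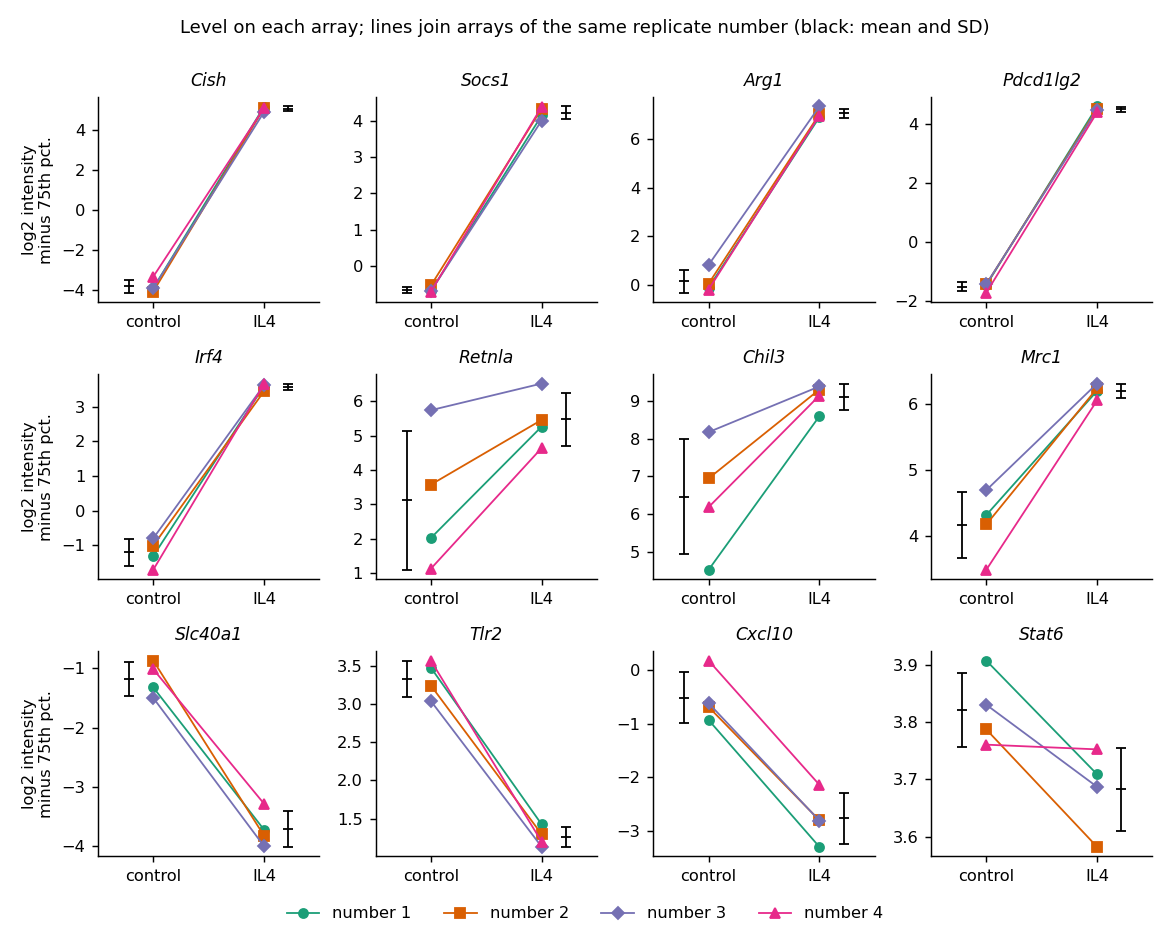
Level on each array (log2 intensity minus the 75th percentile) for 12 genes, with a line joining the control and IL4 arrays of each replicate number and black bars for the mean and SD of 4 arrays. *Cish*, *Socs1*, *Arg1* and *Pdcd1lg2* start and end within narrow ranges, while control levels of *Retnla* and *Chil3* spread widely and *Stat6* moves by 0.14.

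Among transcription factors of macrophage activation, 27 of 51 were called higher and 7 lower (66.7% called, against 29.8% of all genes). *Irf4*, a factor of the alternative programme, read -1.31, -1.01, -0.80 and -1.71 on control arrays and 3.59, 3.44, 3.62 and 3.64 on IL4 arrays, a 27.6-fold rise. *Batf3*, a partner of IRF4, rose by 3.46 ± 0.18 and *Nfil3* by 2.79 ± 0.06. *Maf*, a bZIP factor of macrophages, fell by 0.49 ± 0.09, a call lost with spike-in scaling (adjusted p = 0.0607). *Pparg*, the lipid-sensing nuclear receptor, rose by 1.34 ± 0.06 and its coactivator *Ppargc1b* by 1.87 ± 0.10, whereas *Ppargc1a* fell by 0.44 ± 0.08, a call lost with spike-in scaling (adjusted p = 0.122). *Ahr* rose by 1.67 ± 0.07, *Klf4* by 1.53 ± 0.06, *Egr2* by 1.44 ± 0.07 and *Myc* by 0.91 ± 0.16. *Klf2* fell by 0.52 ± 0.12, but was not called without number 2 (adjusted p = 0.0598) or 3 (0.0754), and *Nr4a1* fell by 0.66 ± 0.07. Interferon regulatory factors split: *Irf1* rose by 1.05 ± 0.06 and *Irf2* by 0.57 ± 0.07, *Irf8* fell by 0.30 (adjusted p = 0.0536 without number 3), and *Irf5* (-0.07) and *Irf7* (-0.04) were not called. *Gata6*, which defines large peritoneal macrophages, read -1.03, -0.55, -0.29 and 0.35 on control arrays and 0.03, 0.33, 0.62 and 1.20 on IL4 arrays. It rose by 0.92 ± 0.06. Its level climbed from number 1 to number 4 in both groups (limma F test, adjusted p = 0.00666), as did that of the fibroblast marker *Pdgfra*. The part of mesothelial cells and fibroblasts in the rise of *Gata6* was not tested. In the chromatin list the demethylase *Kdm6b* rose by 1.16 ± 0.09, and *Kdm6a* (0.03) and *Ezh2* (-0.16) were not called. Of 14 clock genes, *Nfil3* and *Bhlhe40* (0.96) were called higher and *Dbp* (-0.68) lower (21.4% called, against 29.8% of all genes).

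Arginine metabolism rose at its entry. Of 25 genes of arginine, proline and polyamine metabolism, 9 were called higher and 4 lower (52% called), with a median of 0.09. The cationic amino acid transporter *Slc7a2* read -2.44, -2.24, -1.44 and -2.97 on control arrays and 2.52, 2.69, 2.86 and 2.70 on IL4 arrays, a 31.2-fold rise without overlap. *Slc7a1*, a second transporter of the same amino acids, rose by 0.78 ± 0.07, and the mitochondrial arginase *Arg2* by 1.11 ± 0.07. Downstream, *Aldh18a1* of proline synthesis rose by 0.66 ± 0.10 and the spermidine synthase *Srm* by 0.43 ± 0.06, while the oxidase *Smox* fell by 0.78 ± 0.08 and *Ass1*, which makes arginine from citrulline, by 0.53 ± 0.06. *Nos2*, the enzyme that competes for arginine in classical activation, read -1.26, -1.32, -1.90 and -2.09 and -1.02, -1.69, -1.35 and -2.14 and was not called. *Il4i1*, an oxidase of aromatic amino acids, rose 19.1-fold.

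CC chemokines mostly rose and CXC chemokines mostly fell. Of 16 CC chemokines, 10 were called higher and 4 lower (87.5% called, median 0.72). Of 9 CXC and other chemokines, 1 was called higher and 6 lower (77.8% called, median -0.69), or none and 4 without the replicate block. *Ccl7* read -1.23, -0.08, 0.18 and 0.13 on control arrays and 3.90, 4.11, 3.83 and 4.50 on IL4 arrays, and *Ccl2*, a monocyte attractant like *Ccl7*, read 2.05, 3.03, 3.37 and 3.27 and 4.12, 4.85, 4.70 and 5.25. *Ccl12* rose at least 7.25-fold, *Ccl17* at least 4.20-fold and *Ccl11* at least 3.31-fold from below background, and *Ccl24* rose by 3.09 ± 0.17. *Ccl11* and *Ccl24* encode eotaxins, which attract eosinophils. *Ccl9* rose by 0.89 ± 0.12 and *Ccl6* by 0.55 ± 0.07. *Ccl3* fell by 1.10 ± 0.08 and *Ccl4*, a close relative, by 0.82 ± 0.07. *Ccl8* differed by 0.13 and was not called. *Cxcl10*, an interferon-induced attractant of T cells, read -0.93, -0.68, -0.61 and 0.18 on control arrays and -3.30, -2.80, -2.81 and -2.14 on IL4 arrays. The neutrophil attractants *Cxcl2* and *Cxcl1* fell by 1.21 ± 0.17 and 0.61 ± 0.10. *Cxcl16* fell by 1.01 ± 0.10, and *Cxcl12* alone rose, by 1.25 ± 0.12 (its other probe gave 0.61). Mesothelial cells and fibroblasts also make *Ccl11* and *Cxcl12*. The sum of their 14 markers was higher on IL4 arrays in each pair. It read 20.9, 48.4, 48.4 and 89.3 times the 75th percentile on control arrays 1 to 4. On IL4 arrays 1 to 4 it read 24.5, 59.6, 65.1 and 118 times. Singly, 8 of the markers were called higher and 6 were not called. The part of these cells in the rises of *Ccl11* and *Cxcl12* was not tested. On bulk arrays fewer cells of a type and less RNA per cell cannot be told apart.

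Of 23 chemoattractant receptors, 12 were called lower and 6 higher (78.3% called, median -0.39). The formyl peptide receptor *Fpr1* read -2.23, -2.34, -2.28 and -2.09 on control arrays and -3.79, -3.46, -3.06 and -4.20 on IL4 arrays, and *Fpr2* fell at least 3.68-fold to below background. *C5ar1*, the receptor of complement C5a, fell by 1.41 ± 0.06, while *C3ar1*, the receptor of C3a, rose by 0.67 ± 0.06. *Cx3cr1*, the fractalkine receptor of monocytes, fell at least 2.48-fold. *Cxcr1* fell by 1.82 ± 0.12 and *Cxcr3* by 1.47 ± 0.10. *Ccr2* differed by -1.46, -0.09, -1.23 and -1.08 in pairs 1 to 4, so that pair 2 hardly moved, and its call was lost without number 1, 3 or 4 (adjusted p = 0.00179 to 0.0860 over the 4 numbers left out). The largest rise was in *Ltb4r1*, the high-affinity leukotriene B4 receptor, which read -0.86, -0.99, -0.79 and -0.88 on control arrays and 2.37, 2.04, 2.00 and 2.36 on IL4 arrays. *Gpr183*, the receptor of oxysterols made by *Ch25h* and *Cyp7b1*, rose by 1.51 ± 0.15.

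Receptors for microbial products were called lower more often than higher. Of 35 pattern recognition genes, 16 were called lower and 4 higher (57.1% called, against 29.8% of all genes), with a median of -0.16 (-0.06 with spike-in scaling). *Tlr2*, the receptor of bacterial lipopeptides, read 3.47, 3.24, 3.04 and 3.57 on control arrays and 1.42, 1.29, 1.13 and 1.20 on IL4 arrays, a 4.20-fold fall. *Tlr13*, a sensor of bacterial ribosomal RNA, fell by 1.93 ± 0.07. The C-type lectin receptors of the dectin-2 cluster fell together: *Clec4e*, which encodes Mincle, read 5.09, 5.25, 4.80 and 5.41 and 3.24, 3.05, 2.66 and 3.04, *Clec4n* (dectin-2) fell by 1.49 ± 0.09 and *Clec4d* by 1.38 ± 0.07. *Cd14* and *Cd180*, which take part in lipopolysaccharide sensing, fell by 0.84 ± 0.06 and 0.89 ± 0.07. *Tlr4* itself rose by 0.47 ± 0.06, and *Tlr8* by 1.74 ± 0.13. *Tlr7* (0.07), *Tlr9* (0.16) and *Tlr1* (0.15) were not called. *Nod1* rose by 0.75 ± 0.10 and *Nod2* fell by 0.70 ± 0.06; both sense bacterial cell wall fragments.

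**Figure D3:**
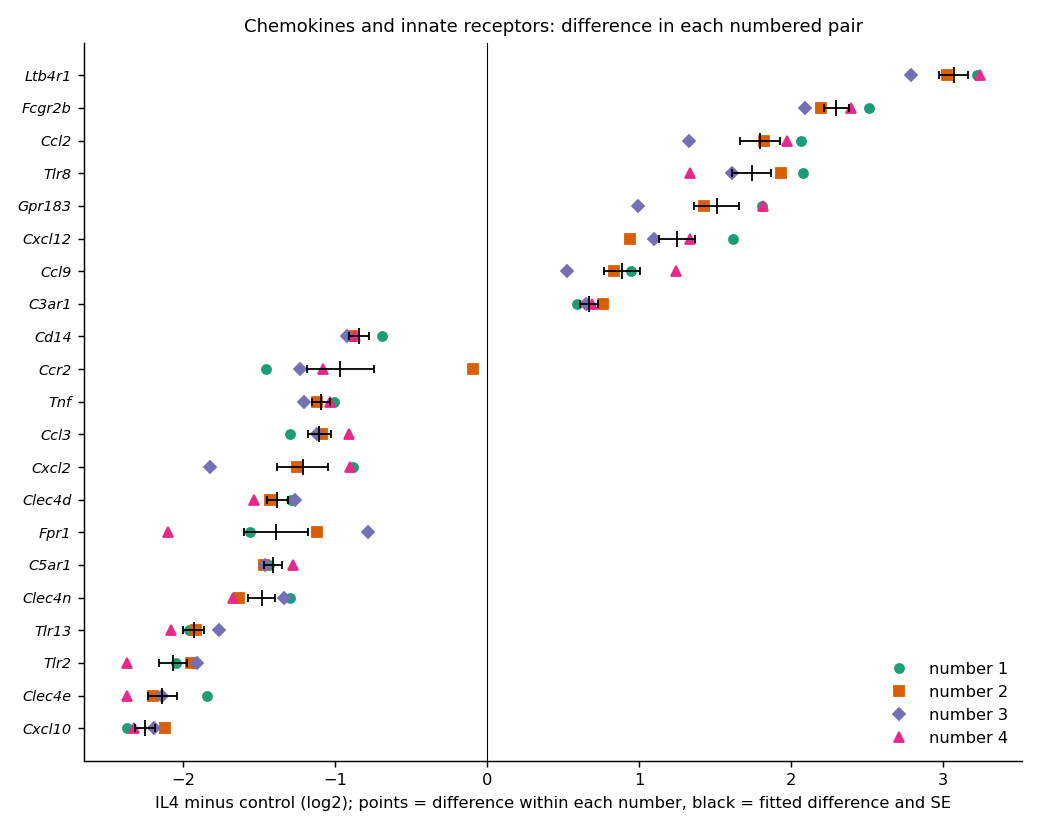
Difference between IL4 and control (log2) within each replicate number (symbols) with the fitted difference and its SE (black) for 21 chemokines and innate receptors. *Ltb4r1* and *Fcgr2b* lie above 2 in each pair, *Clec4e*, *Tlr2* and *Cxcl10* lie near -2, and *Ccr2* has 1 pair near 0.

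Among the Fc receptors, which bind antibodies, the inhibitory member rose and 2 activating members fell. The inhibitory receptor *Fcgr2b* read 4.38, 4.79, 4.69 and 4.43 on control arrays and 6.89, 6.99, 6.79 and 6.82 on IL4 arrays and rose 4.93-fold. The activating receptors *Fcgr1* and *Fcgr4* fell by 0.57 ± 0.06 and 0.62 ± 0.06, and *Fcgr3* (-0.05) was not called. The shared signalling chain *Fcer1g* fell by 0.24 ± 0.06, a call lost when any 1 of the 4 numbers was left out (adjusted p = 0.0503 to 0.0870). In all, 1 of 12 rose and 5 fell (50% called). *Fcrl1*, a receptor-like gene of B cells, fell at least 4.13-fold. On all 8 arrays 6 of 10 B cell markers were above background, and the others were too dim to test. Of the 6 tested, 2 were called higher and none lower (33.3% called, near the share of all genes). The part of B cells in the fall of *Fcrl1* was not tested. The summed level of T cell markers was 12.5 to 13.4 on control arrays and 9.10 to 9.85 on IL4 arrays. Only some of the markers fell: 3 of the 5 tested were called lower (60% called). *Cd4* (0.02), the brightest of the list, and *Cd5* (-0.46) were not called. On no array were 4 of the 9 markers above background, among them *Cd3d*, *Cd3g* and *Cd8a*. *S1pr1*, the lymphocyte egress receptor, fell by 1.90 ± 0.09. The part of T cells in this fall was not tested.

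Of the costimulatory and checkpoint ligands, 8 of 23 were called higher and 6 lower (60.9% called). Beside *Pdcd1lg2*, its relative *Cd274*, which encodes PD-L1, rose by 0.99 ± 0.07, and *Cd40* by 1.49 ± 0.12. *Icosl* fell by 1.40 ± 0.10, *Tnfsf9* by 1.23 ± 0.09, *Vsir* by 0.76 ± 0.06, and *Tnfsf18* at least 2.00-fold. *Cd86* (-0.26) was not called. *Il31ra*, a receptor of the interleukin 6 type, was on the same list, and rose at least 24.2-fold from below background on all 4 control arrays. Of 13 class II presentation genes, 5 were called higher and 1 lower (46.2% called), or 2 and 1 without the block. *H2-DMa*, which loads peptides, rose by 1.07 ± 0.07 and *Ifi30* by 0.51 ± 0.07, while the class II chains *H2-Aa* (0.09), *H2-Ab1* (0.17) and *H2-Eb1* (0.08) were not called.

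Inflammatory mediators were lower more often than higher, with 10 of 20 called lower and 3 higher (65% called). *Tnf* read 1.85, 1.88, 1.82 and 1.52 on control arrays and 0.84, 0.76, 0.61 and 0.48 on IL4 arrays. *Acod1*, which makes itaconate, fell by 0.77 ± 0.09, *Il15* by 0.66 ± 0.09, and *Il1rn*, the antagonist of interleukin 1, by 0.96 ± 0.06. *Il1a* (0.05) and *Il1b* (0.11) were not called. The rises were *Csf1* (1.52 ± 0.11, with 2 other probes at 0.72 and 0.66), *Il6*, at least 4.05-fold, and *Ptgs2*, which encodes cyclooxygenase 2, at least 3.98-fold. Of 22 NF-kB genes, 5 rose and 6 fell (50% called), or 4 and 2 with spike-in scaling. The rises were led by *Tnip3* (1.62 ± 0.07), *Rel* (1.14 ± 0.09, above background on 2 of 4 control arrays) and *Nfkb1* (0.74 ± 0.09). Among the falls were *Nfkbie* (-0.74 ± 0.08) and *Traf1* (-0.66 ± 0.07). The 35 interferon-stimulated genes gave 9 rises and 9 falls (51.4% called), or 8 and 1 with spike-in scaling. *Zbp1* lay at 1.25 ± 0.12, *Usp18* at 0.78 ± 0.10 and *Ifit3* at -1.24 ± 0.10.

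Within lipid mediator synthesis, both cyclooxygenases, 2 of their downstream synthases and 12/15-lipoxygenase rose. Of 30 genes, 11 were called higher and 6 lower (56.7% called). *Ptgs1*, cyclooxygenase 1, read 2.57, 2.78, 3.21 and 2.54 on control arrays and 5.41, 5.29, 5.36 and 5.01 on IL4 arrays, a rise of 2.49 ± 0.11. The thromboxane synthase *Tbxas1* rose by 1.23 ± 0.10 and the prostacyclin synthase *Ptgis* by 1.19 ± 0.06, and the receptors *Ptger2* and *Ptgir* by 1.85 ± 0.07 and 1.08 ± 0.07. *Alox15*, the lipoxygenase that marks alternative activation and large peritoneal macrophages, rose at least 2.07-fold. *Hpgds*, which makes prostaglandin D2, fell by 1.14 ± 0.06. *Alox5ap*, the partner of 5-lipoxygenase, fell by 0.56 ± 0.08, and *Alox5* by 0.31 ± 0.08, a call lost when any 1 of the 4 numbers was left out (adjusted p = 0.0528 to 0.120). The cysteinyl leukotriene receptor *Cysltr2* rose by 2.30 ± 0.12, whereas *Cysltr1* (-0.18) was not called.

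Sterol and retinoid genes rose at a few steps. *Ch25h*, the cholesterol 25-hydroxylase, read -3.61, -2.60, -1.81 and -2.76 on control arrays and 2.52, 2.67, 3.20 and 1.75 on IL4 arrays, a 37.5-fold rise. *Abcg1*, a sterol exporter, rose by 0.82 ± 0.06, while *Abca1*, another, fell by 0.56 ± 0.07 and *Mylip* by 0.92 ± 0.12. The list of 17 oxysterol and efflux genes gave 4 rises and 6 falls (58.8% called), or 4 and 2 with spike-in scaling. Of 16 retinoid genes, 8 were called higher and 1 lower (56.2% called). *Rbp4*, the plasma carrier of retinol, read -4.67, -4.34, -3.43 and -4.29 and 0.98, 1.22, 1.48 and 0.42, and the retinal dehydrogenase *Aldh1a2* rose by 1.35 ± 0.07. *Aldh1a3* read -4.67, -5.46, -3.28 and -4.72 on control arrays and -3.11, -1.88, -2.41 and -0.62 on IL4 arrays, a difference of 2.53 ± 0.56 that was not called without number 1, 2 or 4 (adjusted p = 0.0145 to 0.0633 over the 4 numbers left out). Only 1 of the 4 control arrays had *Aldh1a3* above background, and 2 of 4 had *Rbp4*, so their control levels are uncertain. *Adipoq*, which encodes the fat cell hormone adiponectin, was below background on all control arrays and rose at least 81.7-fold, the largest bound of any gene. *Lipn*, a lipase, rose by 2.36 ± 0.06. Of 34 genes of fatty acid and cholesterol synthesis, 11 fell and 3 rose (41.2% called), but 2 fell with spike-in scaling. *Elovl6* (-0.78 ± 0.15, adjusted p = 0.0532 without number 3) fell most and *Acacb* rose at least 2.28-fold.

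Iron genes were led by opposite changes in uptake and export. The transferrin receptor *Tfrc* read 3.46, 3.88, 4.25 and 3.16 on control arrays and 5.15, 5.35, 5.64 and 4.99 on IL4 arrays, a rise of 1.60 ± 0.09. The exporter ferroportin, *Slc40a1*, read -1.32, -0.87, -1.50 and -1.02 and -3.72, -3.82, -4.00 and -3.28, a 5.76-fold fall. The ferritin chains *Fth1* (0.04) and *Ftl1* (0.06) were not called. *Slc11a2*, a metal importer, was higher by 0.36, but not called with the mean of its probes (adjusted p = 0.170), and *Hmox1* (-0.36) and *Hmox2* (-0.49), which release iron from haem, were lower, with calls lost under spike-in scaling (adjusted p = 0.287 and 0.0624). In all, 3 of 22 rose and 7 fell (45.5% called), or 2 fell with spike-in scaling.

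Glycolysis changed step by step. *Hk2* read 2.18, 1.99, 2.04 and 1.96 on control arrays and 3.54, 3.44, 3.36 and 3.32 on IL4 arrays and rose by 1.38 ± 0.06. *Pfkp* rose by 0.86 ± 0.06 (its other probe gave 0.40), whereas *Pfkl*, another subunit of the same enzyme, fell by 0.66 ± 0.07 and *Pfkm* (-0.15) was not called. *Aldoc*, *Eno1* and the glucose transporter *Slc2a3* fell by 0.86 ± 0.06, 0.64 ± 0.08 and 0.65 ± 0.08. *Gapdh* (-0.05) and *Pkm* (-0.08) were not called. Of 29 genes, 7 rose and 10 fell (58.6% called). Of 31 antioxidant and NADPH genes under the factor NRF2, 16 were called lower and none higher (51.6% called, median -0.27). Without the block 11 were called lower, and with spike-in scaling 5. *Gsr*, glutathione reductase, read 4.98, 5.16, 5.08 and 4.92 and 4.23, 4.25, 4.22 and 4.17 and fell by 0.82 ± 0.06, and *Gsta3* fell by 0.79 ± 0.06, *Prdx1* by 0.54 ± 0.08 and *G6pdx* by 0.52 ± 0.06. *Nfe2l2*, which encodes NRF2, was not called (-0.07), and neither was *Nqo1* (-0.16).

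Among genes that supply protein synthesis, calls were rises of small size. Of 25 genes of the integrated stress response and serine synthesis, 19 were called higher and none lower (76.0% called, against 29.8% of all genes), with a median of 0.56. The amino acid transporter *Slc7a5* read -0.51, -0.97, -0.81 and -1.27 on control arrays and 0.42, 0.21, 0.09 and 0.34 on IL4 arrays. *Phgdh*, which starts serine synthesis, rose by 0.99 ± 0.09, *Atf4*, the factor at the head of the response, by 0.57 ± 0.06, *Ddit3* by 0.98 ± 0.08, *Chac1* by 0.97 ± 0.08 and *Trib3* by 0.90 ± 0.06. Of 20 cytosolic aminoacyl-tRNA synthetases, 10 rose and none fell (50% called), with *Rars* at 0.74 ± 0.07 and *Vars* at 0.49 ± 0.08. Of 32 ribosome biogenesis genes, 17 rose and none fell (53.1% called), led by *Rrs1* (0.83 ± 0.09), *Rcl1* (0.68 ± 0.08) and *Nolc1* (0.54 ± 0.06). Without the block or with spike-in scaling, 10 rose. By contrast, 35 of 37 cytosolic ribosomal protein genes and 31 of 34 oxidative phosphorylation subunits were not called, with medians of -0.04 (0.06 with spike-in scaling) and 0.02. The ER chaperones *Hspa5* (0.05), *Calr* (-0.08) and *Hsp90b1* (0.10) were not called either, although *Pdia4*, an ER disulfide isomerase, read 0.19, 0.26, 0.54 and 0.28 on control arrays and 3.05, 3.31, 3.38 and 3.56 on IL4 arrays, an 8.03-fold rise.

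**Figure D4:**
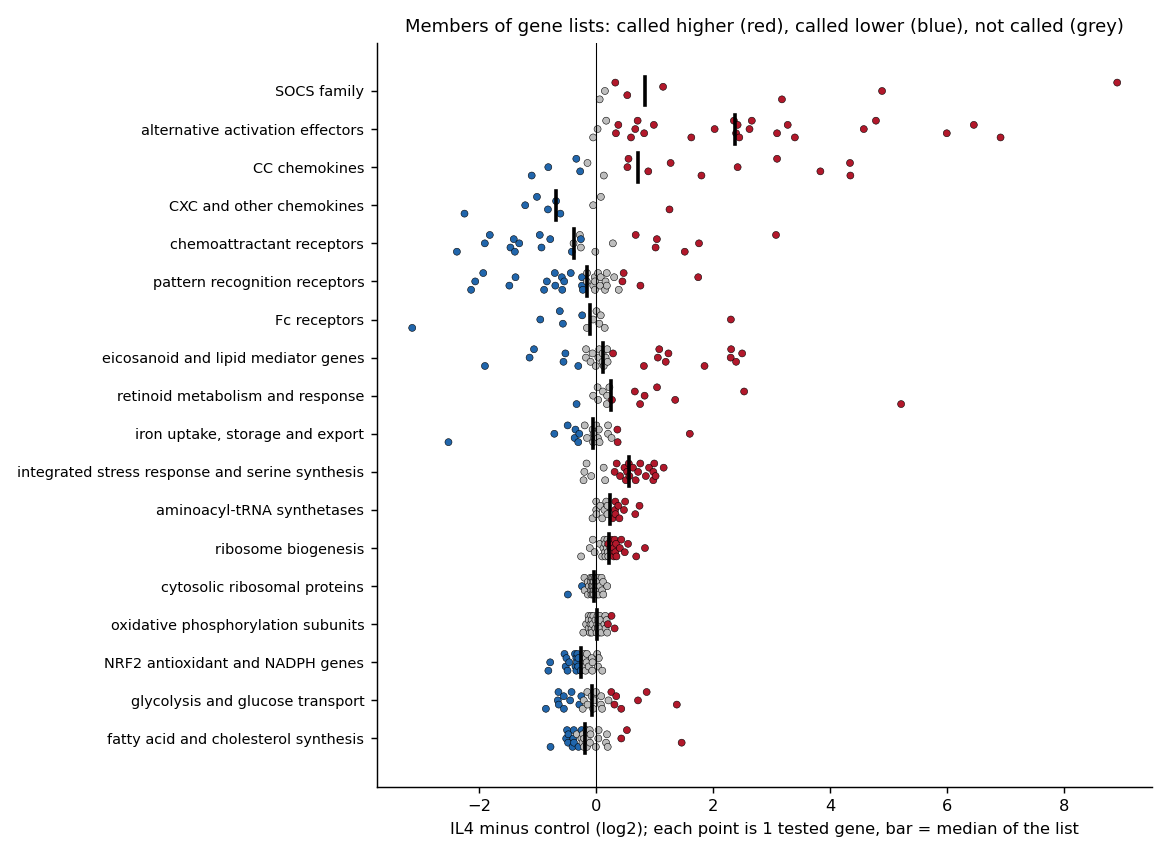
Difference between IL4 and control (log2) of every tested member of 18 gene lists, with red points called higher, blue called lower, grey not called, and a bar at the median of the list. Members measured in 1 group only are drawn at their fitted difference. The alternative activation and SOCS lists reach far to the right, the integrated stress response list lies above 0 by small steps, and ribosomal protein genes lie near 0.

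Growth factors, matrix genes and guidance molecules changed singly. *Hbegf*, an epidermal growth factor ligand, rose by 2.82 ± 0.27, *Pdgfc* by 1.41 ± 0.12 and *Vegfc* by 1.37 ± 0.06, whereas *Vegfa* fell by 0.68 ± 0.10, *Pdgfb* fell by 1.52 ± 0.06 and the coreceptor *Nrp1* fell by 1.02 ± 0.10. Of 28 such genes 10 rose and 6 fell (57.1% called). *Mmp13*, a collagenase, rose by 3.04 ± 0.27 and *Fn1*, fibronectin, by 2.44 ± 0.09, while *Tgfbi* fell by 1.02 ± 0.06. Stromal cells also express *Fn1*. The sum of their markers was higher on IL4 arrays in each pair, with 6 of 14 markers not called, as given above. Of 22 semaphorin, plexin and ephrin genes, 10 rose and 4 fell (63.6% called). *Sema4b* rose by 2.83 ± 0.09 and *Sema7a* at least 3.15-fold, and *Sema4d* read 5.36, 4.96, 4.72 and 5.47 on control arrays and 2.91, 2.84, 2.56 and 3.06 on IL4 arrays, a 4.88-fold fall. Of 16 genes of macrophage fusion, 8 rose and 2 fell (62.5% called). *Ocstamp*, a fusion protein, rose by 3.61 ± 0.13, whereas *Dcstamp*, its relative, read 1.77, 1.90, 2.22 and 1.40 and 1.75, 1.71, 1.92 and 1.56 and was not called. The integrin *Itgb3* rose by 1.57 ± 0.06 and the scavenger receptor *Olr1* by 2.01 ± 0.08, while *Msr1* fell by 0.87 ± 0.08 and *Stab1* by 0.71 ± 0.10. Of 11 dual-specificity phosphatases, 3 rose and 5 fell (72.7% called), or 2 and 3 with spike-in scaling. *Dusp4* lay at 0.85 ± 0.14 and *Dusp6* at -1.16 ± 0.15. In the BCL2 family 2 of 15 rose and 6 fell (53.3% called), but 3 rose and 2 fell with spike-in scaling. *Bcl2l11*, which promotes cell death, lay at 0.96 ± 0.06, *Bmf*, which also does, at -1.13 ± 0.07, and the survival gene *Bcl2l1* at -0.71 ± 0.09. Of 37 cell cycle genes, 4 rose and 8 fell (32.4% called, near the 29.8% of all genes), with *Mki67* at 0.50 ± 0.09, *Cdkn1a* at 0.79 ± 0.07 and *Ccnd3* at -0.65 ± 0.05.

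The 40 largest rises and falls also took in genes not yet described. *Mrgprg*, an orphan receptor of the Mas-related family, read -3.51, -3.78, -3.65 and -3.45 on control arrays and 3.01, 3.17, 2.98 and 2.64 on IL4 arrays, a 93.3-fold rise. *Nrg1*, a neuregulin, rose 29.3-fold. *Tuba8*, an alpha tubulin, rose 49.9-fold, from control levels above background on 3 of 4 arrays, whereas *Tuba1b* (0.20) was not called. *Rab15* rose by 4.63 ± 0.16, but its other probe gave 0.39. Among falls, *Pram1*, an adaptor of myeloid cells, read -0.38, -0.72, -0.19 and -0.52 and -2.96, -3.13, -2.48 and -2.64, and *Dapk2* fell by 2.04 ± 0.10. *1700125H20Rik* fell at least 4.92-fold to below background, as did *Rufy4*, at least 2.15-fold.

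174 genes were above background on all 4 IL4 arrays and on none of the control arrays, and 24 showed the reverse. With the looser background test of the scanner software, 10 genes in all met this. *Rasgrp1*, an activator of RAS, rose at least 13.3-fold, *Tarm1*, a receptor of myeloid cells, at least 10.6-fold and *Col6a5*, a collagen chain, at least 10.5-fold. For *Stxbp6*, a syntaxin-binding protein, the bound was 8.21-fold. These folds set the mean of the bright group against the lowest signal that lay above background, and they are bounds. By kind of transcript, 32.5% of 12824 coding genes were called, 34.1% of 440 RefSeq noncoding genes, and 24.9% of 2569 long noncoding intervals.

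The 4 numbered pairs differed from each other apart from IL4. An F test of the replicate number called 533 genes (2.59%), of which 296 were also called for IL4. Slide column lies within the number, so differences between samples and between columns cannot be told apart. With the spike-in scale it called 1461, and with no filter on dim probes 57. Without the number as a block the IL4 difference was called for 4074 genes, of which 4019 were also called with it. Of the genes named in this text, 18 were called with the block and not without it: *Alox5*, *C3*, *Ccl6*, *Col1a2*, *Col3a1*, *Cxcl1*, *Cxcl12*, *Cyp7b1*, *Ear2*, *Gata6*, *Mgp*, *Mki67*, *Ppargc1a*, *Prdx1*, *Retnla*, *Stab1*, *Vegfa* and *Vegfc* (limma adjusted p = 0.0567 to 0.515 without the block). *Ccl8*, a CC chemokine, had the widest range. It read 2.33, 4.61, 5.54 and 1.65 on control arrays 1 to 4 and 2.74, 4.54, 5.40 and 1.96 on IL4 arrays 1 to 4, so numbers 2 and 3 were high and numbers 1 and 4 low with or without IL4 (limma F test, adjusted p = 0.00229). The mast cell proteases *Cpa3* and *Cma1* had their highest level in number 3 in both groups. *Dcn*, which encodes the stromal proteoglycan decorin, read 3.22, 4.86, 4.70 and 5.61 on control arrays and 3.35, 4.88, 4.87 and 5.67 on IL4 arrays, lowest in number 1 and highest in number 4. *Pdgfra*, *Lum* and *Mgp* had their lowest level in number 1 and their highest in number 4 too. *Mgp*, the matrix Gla protein, and *Igfbp5* also rose with IL4, *Mgp* by 1.55 ± 0.10 and *Igfbp5* at least 5.50-fold. Of the 14 stromal markers, 8 were called higher with IL4 with the block (57.1% called) and 2 without it. *Krt18* and *Krt8*, keratins of mesothelial cells, rose by 2.07 ± 0.12 and 1.42 ± 0.11, *Col1a2* and *Col3a1* by 0.58 ± 0.10 and 0.56 ± 0.10, while *Dcn* (0.09), *Pdgfra* (0.16) and *Msln* (0.11) were not called. The part of stromal cells in the rises of *Mgp* and *Igfbp5* was not tested.

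**Figure D5:**
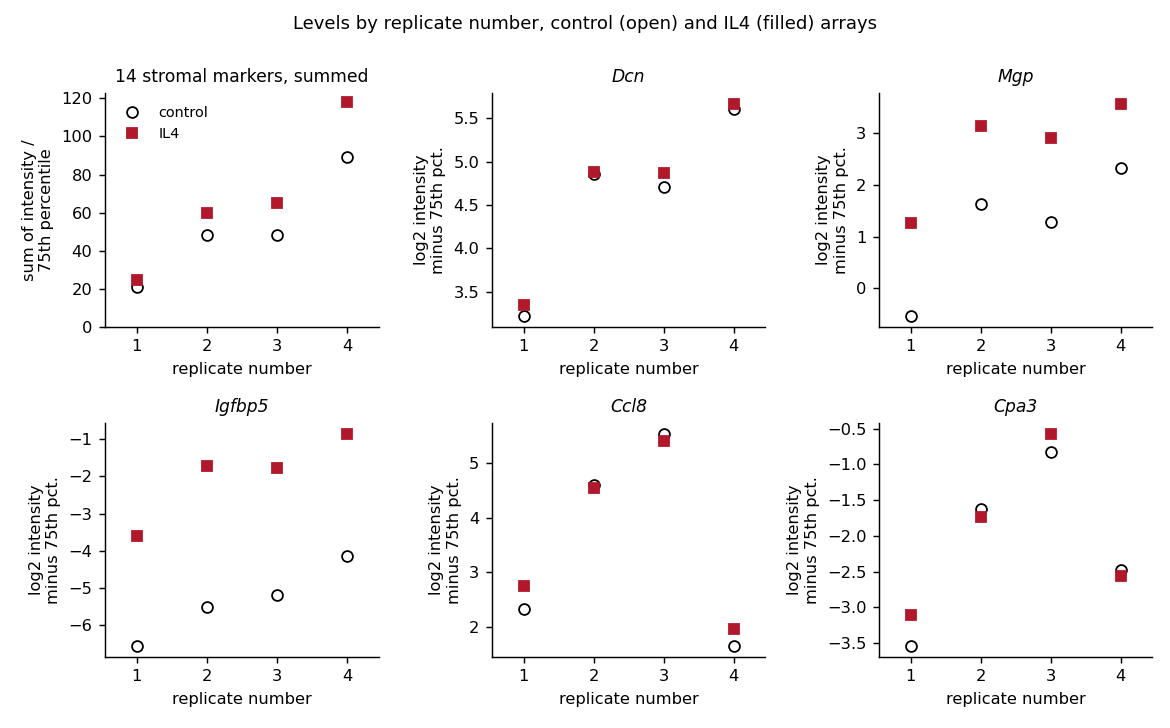
Levels by replicate number on control arrays (open circles) and IL4 arrays (filled squares), as the sum of intensity over the 75th percentile for 14 stromal markers and as log2 intensity minus the 75th percentile for 5 genes. The summed markers run from 20.9 in number 1 to 89.3 in number 4 on control arrays, *Ccl8* is high in numbers 2 and 3, and *Mgp* and *Igfbp5* lie higher with IL4 in every number.

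The response of numbers 1 and 2 was set against that of numbers 3 and 4, the split that the labels give as female and male. The fit called 0 genes for a difference between the 2 responses (limma, group by labelled sex term), and 644 had an unadjusted p below 0.05, which is 3.13% of the genes tested. With 2 residual degrees of freedom the smallest adjusted p was 0.9997, so small differences between the pairs of numbers were not detectable. Within numbers 1 and 2 alone 2854 genes were called, and within numbers 3 and 4 alone 1732.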

How the data were processed

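Per the file headers, the deposited scanner files hold Cy3 intensity of each spot, extracted and background-subtracted with Agilent Feature Extraction 10.7.3.1. The deposited value table, used as an alternative, holds log2 values; quantile normalization of the scanner signals, then subtraction of each probe's median over 12 arrays, gave the same values (correlation 1.00 for each array).

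Control spots and outlier spots were left out, and spots of a probe averaged. Probe names came from RefSeq accessions, which gave 27509 of 55681 probes 1 symbol. Values are log2 of the processed intensity, set to 0 at the 75th percentile of each array. A probe was kept if every array of 1 group or the other showed it well above background (27279), and each gene took its probe with the highest mean. Of 3343 genes with several kept probes, 28 had probes called in opposite directions.

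The difference was fitted in limma 3.58.1 (R 4.3.3) with group and replicate number as terms, empirical Bayes moderation and two-sided tests, with 3 residual and 2.82 prior degrees of freedom. P-values were adjusted by Benjamini-Hochberg over all genes and called below 0.05. The labels do not say that a number marks shared animals. Numbers were used as pairs because the comparison was defined within replicate number. Deviations from the group mean correlated at 0.546, 0.327, 0.363 and 0.453 between same-numbered arrays and at -0.313 to 0.177 between others. Deviations cancel out over the arrays of a group, so the values for same and different numbers are not independent. Slide column lies within the number, so a shared column and a shared source cannot be told apart in these correlations. At-least folds set the mean of the bright group against, per array, the higher of the dimmest signal above background and the probe's own. The normexp alternatives used the median spot signal with an offset of 50, as no mean signal column was used here. Groups and numbers came from the sample titles.

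The members, the gene lists and the rule for named genes were chosen with earlier results of these data known. By that rule the text could name the 40 largest rises and 40 largest falls that were called with non-overlapping groups, list members, genes measured in 1 group only, and the 10 genes with the largest spread between numbers, of which the text gives a subset. The fit was tested on simulated data. Figures used matplotlib 3.10.9 on Python 3.11.15. The number of arrays limits the precision.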

Additional observations from a re-analysis of the deposited data

Results flagged for a closer look

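In groups of 4 arrays, 1 array stood apart where its gap to the nearest other array took more than a set share of the range of the group. Of 580 groups examined, 28 met this, and chance alone flags about 5% of groups. The share was 0.903 for the 75th percentile of intensity on IL4 arrays, where number 1 (812.8) lay above the others (761 to 766). On control arrays number 4 stood apart for *Ccl12* (share of the range 0.847), *Cd40* (0.839), *Chac1* (0.963), *Cxcr1* (0.848), *Dusp4* (0.887), *H2-DMa* (0.941), *Pdcd1lg2* (0.880), *Rab15* (0.882) and *Tnf* (0.854). Number 1 stood apart there for *Cxcl12* (0.842), *Fcgr4* (0.832), *Nod2* (0.937) and *Socs2* (0.830), number 2 for *Socs1* (0.887) and number 3 for *Dapk2* (0.883). On IL4 arrays number 1 stood apart for *Ifi30* (0.837), *Irf5* (0.957), *Klf4* (0.853), *Nod1* (0.850), *Ptgs2* (0.831) and *Stxbp6* (0.903), number 3 for *Aldh1a2* (0.890), *Cd40* (0.928), *Flt1* (0.844) and *Mmp13* (0.889), and number 4 for *Dapk2* (0.833) and *Tlr4* (0.861). Their causes were not tested.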

How the results depend on the processing

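The count of genes called, 6127 in the main setting, was 4074 with no replicate block, 3951 with the labelled sex as a covariate in place of the block, 3381 without variance moderation, and 10359 of 37018 genes with no filter on dim probes, where 27% of the calls were rises, against 49.2% in the main setting. It was 2854 in numbers 1 and 2 alone, 1732 in numbers 3 and 4 alone, and 3805 to 5469 with 1 number left out. Spike-in scaling gave 4090 calls, of which 67.2% were rises. The count past 2-fold was 497 with normexp and the 75th percentile and 500 with normexp and quantile, against 857, and lay between 608 and 1081 in the other settings. Genes measured in 1 group only numbered 198 with the stricter background test of the scanner software and 10 with its looser test. The count for the replicate number was 1461 with spike-in scaling, 1062 with normexp, 948 with normexp and quantile and 57 with no filter, against 533. The labelled sex term called 0 genes under every setting tried, with 290 to 4565 genes at an unadjusted p below 0.05. Of 276 genes named in the text, none reversed while called in either setting; 18 lost the call with no replicate block, which changed the call of none of the others, 8 with spike-in scaling, 35 without moderation, and 4 to 8 with 1 number left out. The causes were not tested. Signals near background limit what the arrays show: genes dim in both groups were not tested in the main setting. The Y-linked *Eif2s3y*, above background on no array, read -6.77 to -6.54 on control arrays and -7.10 to -6.86 on IL4 arrays. *Ddx3y* and *Kdm5d* were also lower on every IL4 array than on any control array, while *Uty* overlapped. The part of this difference in falls near background, and in the calls with no filter, was not tested.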

Other observations

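Of 16 markers of large peritoneal macrophages, 8 were called higher with IL4 and none lower (50% called), with a median of 0.32. Without the block 6 were called higher. The list shares a member with that of mesothelial cells and fibroblasts. *Selp*, P-selectin, rose by 1.40 ± 0.11, and *Timd4* (0.23), *Icam2* (-0.15) and *Vsig4* (-0.13) were not called. Of the small peritoneal macrophage and monocyte markers, 4 of 8 rose and 3 fell (87.5% called). Among 14 purine receptors and ectonucleotidases, 6 rose and 2 fell (57.1% called). *P2ry1* rose by 1.32 ± 0.08 and *Adora2b* by 1.06 ± 0.11, whereas *Adora3*, another adenosine receptor, fell by 1.09 ± 0.10. Of 17 complement genes, 4 rose and 1 fell (29.4% called, against 29.8% of all genes; 1 and 0 without the block), with *C3* at 0.95 ± 0.07 and the C1q chains *C1qa* (0.04) and *C1qb* (0.02) not called. Of 32 lysosome genes, 7 rose and 2 fell (28.1%, near the share of all genes), with *Psap* at 0.75 ± 0.09. Of 26 nucleotide synthesis genes, 6 rose and 4 fell (38.5%), with *Prps1*, which makes the ribose phosphate precursor, at 1.17 ± 0.08. Of 15 heat shock genes, 3 rose and 1 fell (26.7%, also near it), with *Hsph1* at 1.04 ± 0.06. *Hdc*, the enzyme that makes histamine, rose by 1.75 ± 0.13, while the mast cell markers *Cpa3* (0.12), *Kit* (0.03), *Tpsb2* (-0.11) and *Mcpt4* (-0.12) were not called.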
